A study of Mus musculus with 4 samples.

Results

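The granins and the enzymes that process prohormones were followed across single cells sorted from the mouse hypothalamus. The set holds 10 genes of 35998 gene rows, taken by symbol from the row names of the count tables: the granin family genes Vgf, Chga, Chgb, Scg2 and Scg3, the convertases Pcsk1 and Pcsk2, the carboxypeptidase Cpe, the convertase chaperone Scg5 and the convertase inhibitor Pcsk1n. All 10 were found in every table.

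Cells came from C57BL/6 animals carrying Lepr-cre and Rosa-LSL-tdTomato, in which Cre under the leptin receptor gene switches on a red reporter, so the reporter records Lepr activity at any earlier time as well. Each of 4 plates of 384 wells gave 1 CEL-seq2 library, a method that tags each transcript near its poly(A) tail with a unique molecular identifier (UMI). There were 3 plates from fed animals and 1 plate from animals deprived of food for 24 h, and all carried the same alleles. The sources used here give no age, sex or number of animals per plate, so p-values measure the spread between plates, which may be technical. With 1 fasted plate, fasting and plate cannot be told apart.

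Regulated secretory cells store peptide hormones in dense core vesicles. Granins such as chromogranin A (Chga), chromogranin B (Chgb) and secretogranin II (Scg2) are acidic proteins that condense with the cargo and are themselves cut into peptides, and Vgf is a granin-like precursor of several neuropeptides. Inside the vesicle Pcsk1 and Pcsk2 cut prohormones after pairs of basic residues and Cpe trims the exposed residues. Scg5 keeps Pcsk2 fit for activation, Pcsk1n restrains Pcsk1, and Scg3 helps to hold granins and Cpe at the vesicle membrane. In arcuate neurons that make agouti-related peptide (AgRP neurons), which drive feeding, both Agrp and Npy products pass through this route.

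The plates held 4440490 to 5546516 transcripts each outside spike-ins and mitochondrial genes, and the wells kept numbered 356, 322 and 331 (fed plates 1, 2 and 3) and 270 (fasted plate). Every plate used the same 384 well positions, so a shared position is no shared cell. Lepr itself, the gene whose promoter drives the Cre, was seen in 22.7 to 25.4% of kept wells of each plate, and in 0 of 21 and 4 of 20 pars tuberalis-like wells (class below). Wells with Xist and no Y-linked transcript made up 6.7, 51.6 and 42% on fed plates 1 to 3 against 84.4% for the fasted plate, so sex moved with the plates.

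Wells were clustered without the 10 genes or the pathway genes named below, and the clusters were then named from markers, among them the pathway genes Agrp, Npy, Cga, Tshb and Snap25. AgRP-like neurons numbered 84, 57 and 29 wells (fed plates 1, 2 and 3) and 23 (fasted plate). The 84 of fed plate 1 fell with 4 of fed plate 3 into a cluster apart from the others. Fed levels of Agrp were 1138 to 1489 CPM (the count scaled to a fixed total of all transcripts of the class on that plate) in these wells and 23.6 to 31.7 CPM in the other neurons. Other neurons numbered 40, 50, 75 and 24 wells in the same plate order, and non-neuronal wells 207, 190, 222 and 198. A pars tuberalis-like class, from the part of the pituitary that wraps the hypothalamic stalk, held 21 wells on fed plate 1, 0 on fed plate 2, 1 on fed plate 3 and 20 under fasting. Its hormone subunit gene Cga stood at 8199 CPM on fed plate 1 and 5376 CPM on the fasted plate.

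Promoter sequences from RefSeq (GRCm38.p6, 250 bases before to 50 after each start) were at hand for 8 of the 10 genes, all but Vgf and Cpe. The 8 bases TGACGTCA, the full cyclic AMP response element, lay in the promoters of Chgb, Scg2 and Pcsk1, 3 of 8, against 588 of 32851 promoters (1.79%) in the whole table. Its first 5 bases TGACG, on either strand and counted also inside the full element, lay in 7 of 8 (20.81% of the whole table), with no match in Pcsk1n. Windows of 30 bases are shown for the 4 genes with an entry that were higher in fasted AgRP-like neurons (below), read along the gene's strand, with the matched bases in capitals.
Chga: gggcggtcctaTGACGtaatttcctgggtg
Chgb: gggctgctccgTGACGTCAgggctgagcga
Scg2: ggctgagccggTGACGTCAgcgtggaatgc
Pcsk1: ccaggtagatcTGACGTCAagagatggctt
The Chga window is at chr12:102554886-102554915 on the plus strand and its match begins 44 bases before the RefSeq start. Those of Chgb (chr2:132781559-132781588, plus strand), Scg2 (chr1:79440076-79440105, minus strand) and Pcsk1 (chr13:75089768-75089797, plus strand) begin their match 72, 68 and 78 bases before it. Of the entries with a match, Chga, Scg3, Scg5 and Pcsk2 hold only the 5 bases. A match describes the letters and does not show that a factor binds there.

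Nearly the whole set was higher in neurons than in non-neuronal wells of the same plates. In AgRP-like neurons 8 of the 10 genes were higher and 0 lower, where 27.8% of 15175 genes tested were higher and 59.5% were called in either direction. In the other neurons 9 were higher and 0 lower, beside 27.5% higher and 57.3% called in either direction. Calls are edgeR quasi-likelihood tests on transcripts summed per plate and class, with plate as a term and an adjusted p below 0.05 over all genes. The median log2 difference of the 10 genes was 2.21 and 2.07, and that of all genes was -0.05 and -0.02.

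Among the granins Scg2 (chromosome 1, 79434669 to 79440120, GRCm38) had the widest log2 difference between neurons and non-neuronal wells. Fed plates 1 to 3 had 1229, 1321 and 957.9 CPM in AgRP-like neurons, 2047, 1625 and 1560 CPM in other neurons and 103, 87.1 and 149.1 CPM in non-neuronal wells. None of these plate sums of neurons overlapped a non-neuronal one, and the share of all genes without overlap was not counted. Its log2 difference from non-neuronal wells was 3.57 (SE 0.24, edgeR adjusted p = 8.11e-09) in AgRP-like and 3.87 (SE 0.24, adjusted p = 4.57e-09) in other neurons. For Chga the log2 difference in AgRP-like neurons was 1.03 (SE 0.51) with an edgeR adjusted p = 0.10, called without the fasted plate (1.53) and with no filter on low counts (0.97), and on the fasted plate its level in AgRP-like and non-neuronal wells was 933.2 and 942 CPM. In other neurons it was called (1.57, SE 0.52, edgeR adjusted p = 0.023), but not without fed plate 1 (adjusted p = 0.12), 2 (0.08) or 3 (0.10) or without plate as a term (0.80, adjusted p = 0.48). Vgf was called in both neuron classes (2.18, SE 0.52, and 3.02, SE 0.53, edgeR adjusted p = 0.0036 and 4.05e-04), and both calls were lost without fed plate 1 (adjusted p = 0.11 and 0.067). Without the fasted plate its difference was 1.46 in AgRP-like and 3.18 in other neurons, both called.

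Of the enzymes, Pcsk1, which makes the first cuts in many prohormones, was 3.43 (SE 0.34, edgeR adjusted p = 1.16e-06) higher on the log2 scale in AgRP-like neurons than in non-neuronal wells. On the 3 fed plates it stood at 81.7 to 86.9 CPM in AgRP-like neurons, 64.4 to 119.7 CPM in other neurons and 4.92 to 14.8 CPM in non-neuronal wells. These plate sums did not overlap between neurons and non-neuronal wells, again without a count over all genes. Pcsk2, which makes later cuts, was 1.89 (SE 0.29, edgeR adjusted p = 8.76e-05) higher in AgRP-like neurons. Its non-neuronal level was uneven, at 18.8 CPM on fed plate 1 against 88.7 and 94.2 CPM on fed plates 2 and 3. Ependymocyte-like wells, at 252.8 and 251.6 CPM on fed plates 2 and 3, and oligodendrocyte precursor-like wells, at 230.9 and 194.7 CPM, had Pcsk2 levels above those of AgRP-like neurons on the same plates (205.3 and 172.8 CPM), a difference that was not tested, and fed plate 1 had too few wells of either class for a sum. On the fasted plate the order was the other way, with 147.3 CPM in 8 oligodendrocyte precursor-like wells and 278.4 CPM in AgRP-like neurons.

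Cpe (chromosome 8, 64592542 to 64693054) was the one gene not called in either neuron class, with log2 differences of -0.11 (SE 0.15) and -0.09 (SE 0.15) from non-neuronal wells. The non-neuronal pool was mixed in this gene. Astrocyte-like wells had 2346 and 2434 CPM of Cpe on fed plates 2 and 3 and 2140 CPM on the fasted plate, and tanycyte-like wells, the cells lining the floor of the third ventricle, had 1087, 1077, 932.5 and 1269 CPM. Endothelial-like wells had 574.2, 230.7, 186.9 and 125.7 CPM, and oligodendrocyte-like wells 83.8, 267.9 and 113.8 CPM on fed plates 2 and 3 and the fasted plate. Neurons lay between these classes at 562.8 to 792.5 CPM. Scg3, a partner of Cpe at the vesicle membrane, was also high in astrocyte-like wells, at 472.1, 604.4 and 668.1 CPM on fed plates 2 and 3 and the fasted plate, against 266.6 to 315.4 CPM in AgRP-like neurons. These differences between non-neuronal classes were not tested.

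**Figure D1:**
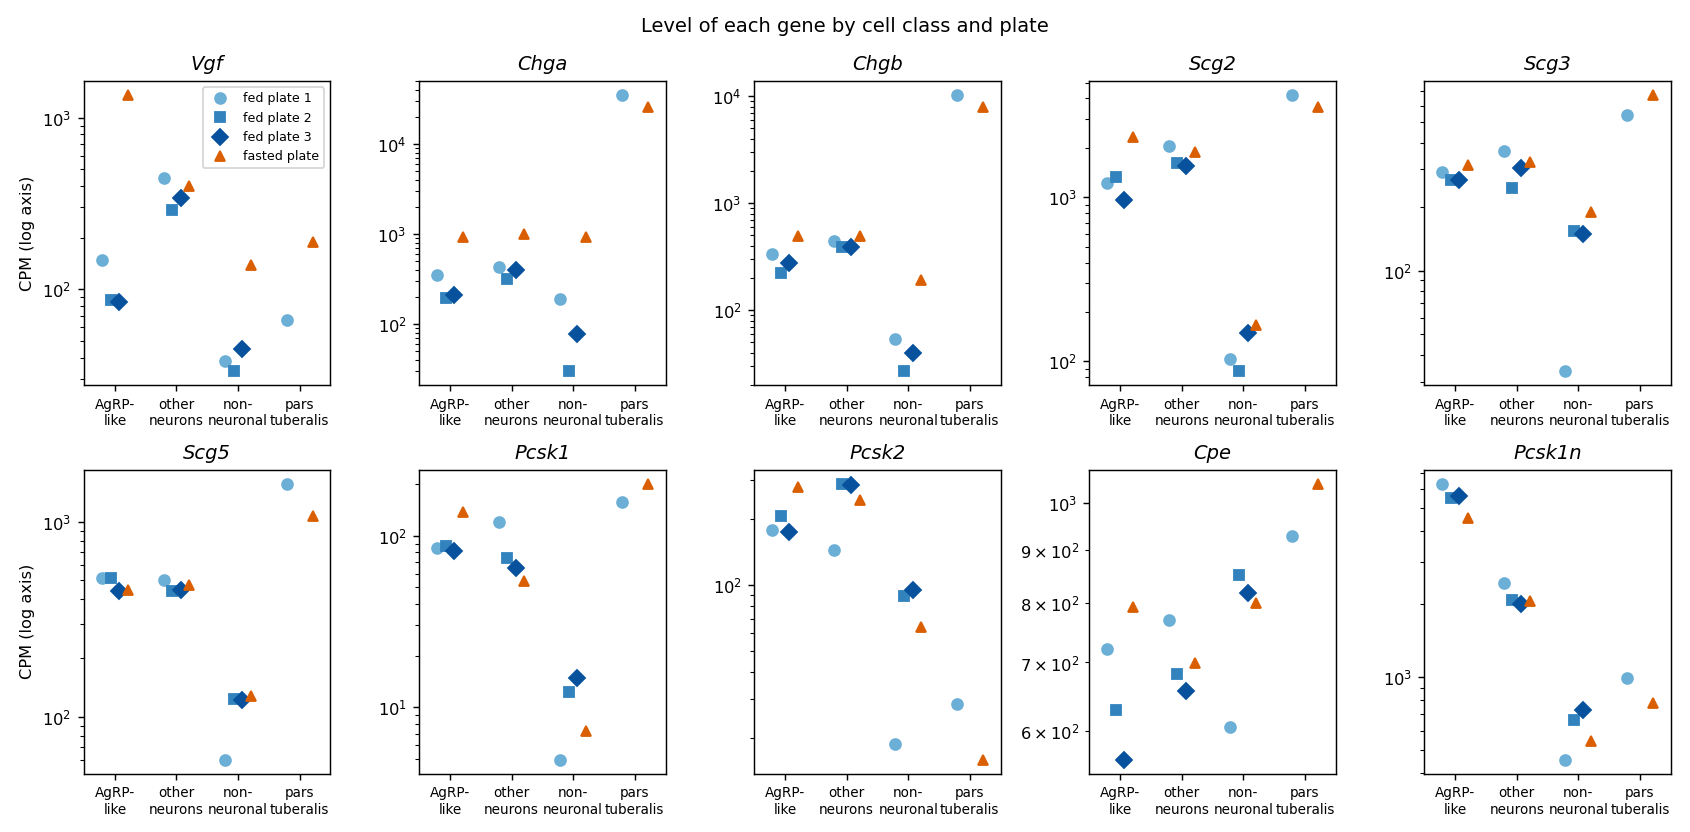
Level of each gene in CPM (log axis, 1 panel per gene) in 4 cell classes, 1 point per plate for sums of at least 5 wells. Chga and Chgb are highest in pars tuberalis-like wells, Pcsk1n in AgRP-like neurons, and Vgf stands apart on the fasted plate in AgRP-like neurons (1359 CPM).

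In pars tuberalis-like wells the levels of the set differed from those in neurons. Against all neurons 4 genes were higher and 3 lower (14.3% of 15175 genes were higher and 31% were called in either direction), in a comparison that rests on fed plate 1 and the fasted plate. Chga stood at 35210 and 25910 CPM in these wells and was 5.37 (SE 0.60, edgeR adjusted p = 4.02e-05) higher on the log2 scale than in neurons. Chgb, at 10300 and 7963 CPM, was 4.11 (SE 0.38, edgeR adjusted p = 4.44e-06) higher. Scg5 (1.38, SE 0.23) and Scg2 (0.99, SE 0.25) were called higher as well, and Scg2 was not called without fed plate 1.

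The 3 lower genes were Pcsk2, Pcsk1n and Vgf. For Pcsk2 these wells gave 28.6 and 15.9 CPM on the 2 plates, beside 177 and 278.4 CPM in AgRP-like neurons, a log2 difference from neurons of -3.51 (SE 0.55, edgeR adjusted p = 3.23e-04). The call of Pcsk2 was lost without the fasted plate (-2.39). Pcsk1n differed by -2.04 (SE 0.22, edgeR adjusted p = 4.74e-06). Vgf differed by -2.36 (SE 0.73, edgeR adjusted p = 0.028), a call lost without fed plate 1 or without plate as a term (-1.66). Scg5, the chaperone of Pcsk2, and Pcsk2 itself thus lay on opposite sides of neurons in these wells. Pcsk1, at 157.2 and 201.6 CPM, was not called against neurons (0.89, SE 0.35, edgeR adjusted p = 0.068) and was called with plain totals, no filter on low counts, no plate term or fed plate 1 left out. Scg3 (0.88, SE 0.38, edgeR adjusted p = 0.099) was called with no filter or without fed plate 1, and Cpe (0.34, SE 0.18, edgeR adjusted p = 0.16) with DESeq2. Against non-neuronal wells 6 of 10 genes were higher and 0 lower (9.26% of genes higher, 24.2% called in either direction), from Chgb and Chga, both 6.67 higher on the log2 scale (SE 0.45 and 0.67), through Scg2 (4.71), Pcsk1 (4.14) and Scg5 (3.58) to Scg3 (2.21, SE 0.43). Pcsk2 (-1.57), Pcsk1n (0.54), Cpe (0.24) and Vgf (0.23) were not called, with edgeR adjusted p from 0.074 to 0.87. With no filter on low counts 6 of the 10 were higher and 1 lower, where 3977 of 34690 genes were called. DESeq2 gave 7 higher and 0 lower, where 3304 of 15175 genes were called.

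Within neurons the inhibitor gene Pcsk1n (chromosome X, 7919822 to 7924410) set AgRP-like cells apart. In plate order, fed 1 to 3 and then fasted, it stood at 6315, 5482, 5633 and 4539 CPM in AgRP-like and at 2452, 2085, 2014 and 2061 CPM in other neurons. On every plate the summed level was higher in AgRP-like neurons, but single wells of the 2 classes overlapped. On the fasted plate the wells ran from 35.65 to 69.67 transcripts per 10000 in AgRP-like and from 9.22 to 46.47 in other neurons. The log2 difference was 1.38 (SE 0.16, edgeR adjusted p = 3.77e-05), and Pcsk1n was the 1 gene of the 10 called, where 2.5% of genes were higher and 6.95% called in either direction. It kept its call under every alternative run for this comparison, with log2 differences between 1.34 and 1.46. The convertase it inhibits was not called (Pcsk1, 0.37, SE 0.28, edgeR adjusted p = 0.59), nor were Chga, Chgb, Scg2, Scg3, Scg5, Pcsk2 and Cpe, between -0.54 and 0.08. Vgf was called lower in AgRP-like neurons only when the fasted plate was left out (-1.72) or no filter on low counts was used (-0.81). With no filter 2 of the 10 genes were called lower, Vgf among them, where 1564 of 34690 genes were called.

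Other neurons were uneven in convertases and Vgf. They fell into 12 smaller clusters, N0 to N11, again made without the 10 genes. Wells led by Pomc (N2), whose product the convertases cut into melanocortins, had 695.8 CPM of Vgf over the 3 fed plates, with 466 to 1177 CPM by plate, and 150.2 CPM of Pcsk1. Wells led by Tac2 and Kiss1 (N11, 5 fed wells) had 666.2 CPM of Vgf, 301.2 CPM of Pcsk1 and 3733 CPM of Scg2. At the other end, wells led by Crabp1 (N4) had 67.7 CPM of Vgf, 39.3 to 93.4 CPM by plate, and 430.3 CPM of Scg2. Pcsk2 spanned from 20 CPM in Ghrh-led wells (N7) and 48.3 CPM in Itpr2-led wells (N1) to 601.2 CPM in N0, which was led by Rasl11b and Rgs16 and also held Sst. The order of Pcsk1n ran otherwise, from 1515 CPM in N0 to 3439 CPM in N7. Several of these clusters have few wells per plate, and no test was made between them.

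**Figure D2:**
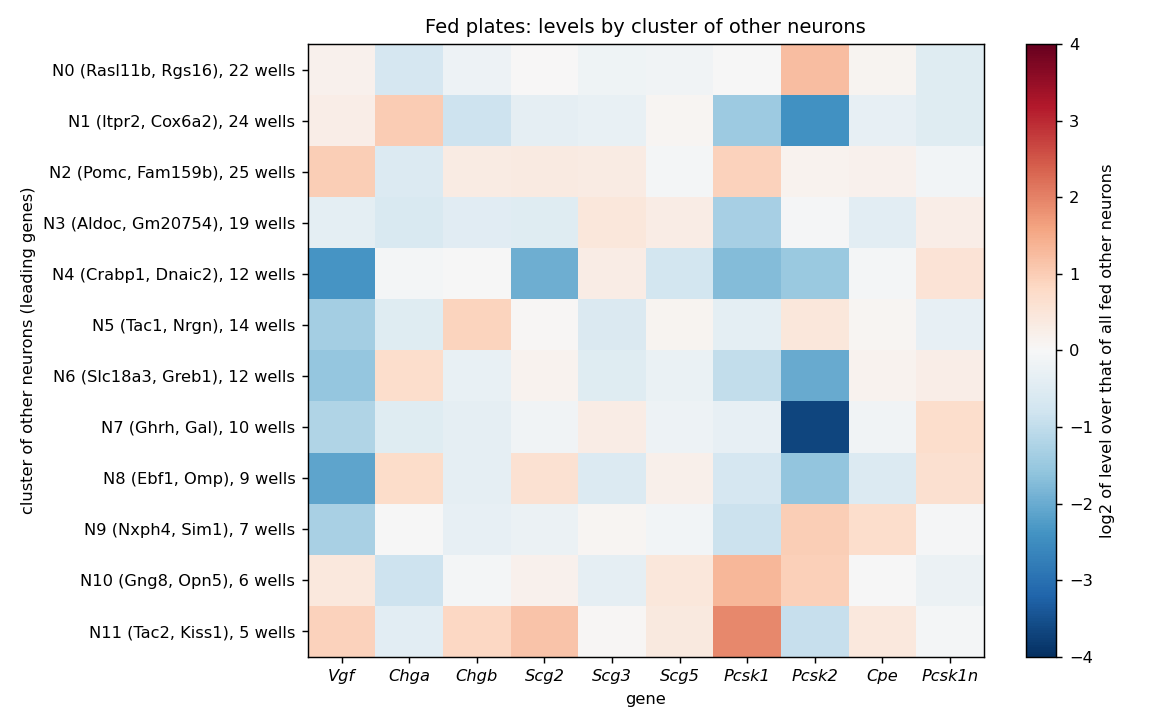
Log2 of the level of each gene (columns) in each cluster of other neurons (rows, with leading genes and number of fed wells) over that of all fed other neurons. Pcsk2 is lowest in N7 and highest in N0, Pcsk1 is highest in N11, and Vgf is highest in N2 and lowest in N4.

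Fasting was then compared within AgRP-like neurons, where 5 of the 10 genes were higher on the fasted plate and 0 lower. Of 13093 genes tested, 2.99% were higher and 4.82% were called in either direction. The genes were Vgf, Chga, Scg2, Chgb and Pcsk1, and the median log2 difference of all 10 was 0.67 beside -0.02 for all genes. Its spread comes from the 3 fed plates alone, the single fasted plate being taken to vary like them.

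Vgf (chromosome 5, 137026392 to 137033351) stood at 148, 86.3 and 84.8 CPM on fed plates 1, 2 and 3 against 1359 CPM under fasting. Every fed plate was below the fasted plate by several fold, and fed plate 1 drew part of its level from 1 well, without which it was at 108.7 CPM. The log2 difference was 3.67 (SE 0.24, edgeR adjusted p = 1.03e-08), and it stayed called under all 9 alternatives run, at 3.54 to 4.02. The shift ran through the wells: on the fasted plate Vgf had a lowest value of 2.28, a median of 10.7 and a highest value of 41.2 transcripts per 10000, while the fed medians were 0.39, 0.30 and 0.44. Of the fed wells, 11 of 84, 5 of 57 and 4 of 29 reached the lowest fasted well, and 3, 1 and 0 reached the fasted median. With each well thinned to 1000 transcripts, Vgf was seen in 15 of 170 fed wells (8.82%, exact binomial 95% interval 5.02 to 14.1%) and in 15 of 23 fasted wells (65.2%, 42.7 to 83.6%). These intervals take wells as trials and hold no spread between plates, so they do not compare feeding states. The fed wells were pooled over 3 plates and the fasted wells came from 1 plate. Unthinned shares were 65.3 and 100%, at medians of 28765.5 and 65352 transcripts per well. In non-neuronal wells the thinned shares were 3.72% fed and 14.6% fasted, the unthinned ones 26.7 and 63.6%, at medians of 6428 and 8269 transcripts.

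For Scg2 the fed values of 1229, 1321 and 957.9 CPM all lay below the fasted value of 2317 CPM, a log2 difference of 1.01 (SE 0.23, edgeR adjusted p = 0.0079). Its median per well was 11.6, 11.3 and 8.44 transcripts per 10000 in fed and 21.3 in fasted wells. The level of Scg2 above that of the non-neuronal wells of the same plate was 1126, 1234 and 808.8 CPM fed and 2150 CPM fasted. Without fed plate 2 the call was lost at an adjusted p of 0.071 with a log2 difference of 1.11, and among wells with Xist alone at an adjusted p of 0.34 (0.92).

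Pcsk1 (chromosome 13, 75089826 to 75134861) had fed values in a narrow band, 85.1, 86.9 and 81.7 CPM, below the fasted value of 138.3 CPM (0.73, SE 0.21, edgeR adjusted p = 0.037). The call ended under DESeq2 (adjusted p = 0.28), with no filter on low counts (0.083), without fed plate 1 (0.069) or fed plate 2 (0.12) and among wells with Xist alone (0.38). Pcsk2 pointed the same way, from 177, 205.3 and 172.8 to 278.4 CPM, and was not called (0.61, SE 0.21, edgeR adjusted p = 0.082).

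The remaining genes of the route were not called. Cpe differed by 0.34 (SE 0.22), Scg3 by 0.23 (SE 0.21), Scg5 by -0.11 (SE 0.22) and Pcsk1n by -0.33 (SE 0.26) on the log2 scale, with edgeR adjusted p from 0.45 to 0.85. The fasted value of Pcsk1n (4539 CPM) lay below each fed value without passing the test.

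**Figure D3:**
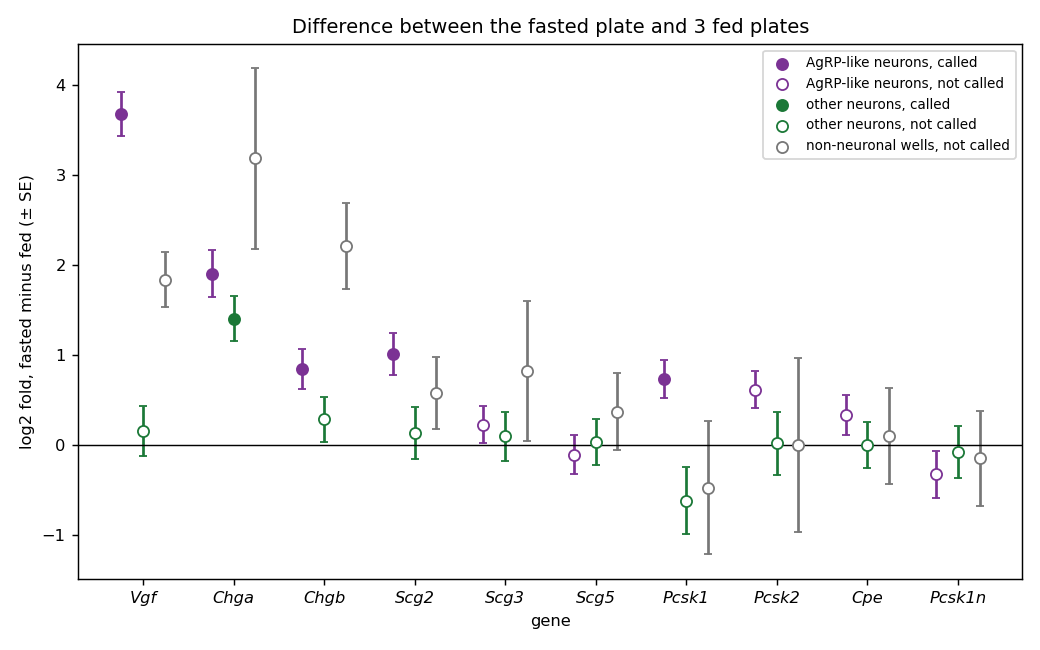
Log2 difference (fasted minus fed, ± SE) of the 10 genes in AgRP-like neurons, other neurons and non-neuronal wells, with filled points for called genes. In AgRP-like neurons Vgf stands at 3.67 and 4 further genes are called, in other neurons Chga alone, and in non-neuronal wells none.

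For Chga and Chgb the same plate showed higher levels outside neurons too. In AgRP-like neurons Chga had fed values of 348.5, 196.8 and 210 CPM and a fasted value of 933.2 CPM (log2 difference 1.90, SE 0.26, edgeR adjusted p = 4.83e-04). In non-neuronal wells it stood at 189.7, 30.1 and 77.6 CPM fed and 942 CPM fasted. All 10 classes with at least 5 wells on the fasted plate, pars tuberalis-like wells left aside, lay between 769.2 CPM in oligodendrocyte precursor-like wells and 1637 CPM in VLMC-like wells (vascular and leptomeningeal cells), a 2.13-fold range. The same range ran from 134.8 to 436.7 CPM on fed plate 1 (8 classes, 3.24-fold), from 0 to 320.5 CPM on fed plate 2 (10 classes) and from 26.8 to 398.6 CPM on fed plate 3 (12 classes, 14.9-fold). The level of Chga in AgRP-like neurons above that in non-neuronal wells was 158.8, 166.7 and 132.4 CPM fed and -8.8 CPM fasted. Wells under 1000 transcripts, which were left out of all classes, had 1569, 249.1 and 468.1 CPM of Chga fed and 5714 CPM fasted. Their median depth was 365.5, 372 and 572 transcripts fed and 25 fasted, and the fasted value rests on 88 Chga transcripts.

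Markers of the pars tuberalis were present in neurons of all plates. The 8 markers summed to 70.5 to 101.6 CPM in fed and 138.9 CPM in fasted AgRP-like neurons, with 8, 5 and 6 of them seen fed and 8 fasted. In other neurons the sums were 71.6 to 96.4 CPM fed and 156.2 CPM fasted, and in non-neuronal wells 123.2 to 741.3 CPM fed and 241.8 CPM fasted. Cga, the most abundant hormone gene among them, was at 19.3, 0 and 3.10 CPM in fed and 46.9 CPM in fasted AgRP-like neurons, and at 27.3, 5.70, 13.6 and 60.6 CPM in non-neuronal wells. Chga and Cga were both lowest on fed plate 2, which had 0 pars tuberalis-like wells. Per Cga transcript the fasted plate had 4.82 Chga transcripts in pars tuberalis-like wells, 19.9 in AgRP-like neurons and 15.6 in non-neuronal wells, and fed plate 1 had 4.29, 18.1 and 6.95. The part of RNA from other wells in the Chga difference was not tested.

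Chgb in AgRP-like neurons stood at 337, 223.5 and 277.2 CPM fed and 492.5 CPM fasted (0.84, SE 0.22, edgeR adjusted p = 0.022), a call lost under DESeq2 (adjusted p = 0.056), without fed plate 2 (0.24) and among wells with Xist alone (0.36). Above the non-neuronal level of the same plate it was at 282.9, 196.7 and 237.8 CPM fed and 302.9 CPM fasted. Vgf had 109.5, 52.9 and 39.9 CPM fed and 1220 CPM fasted by this measure.

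**Figure D4:**
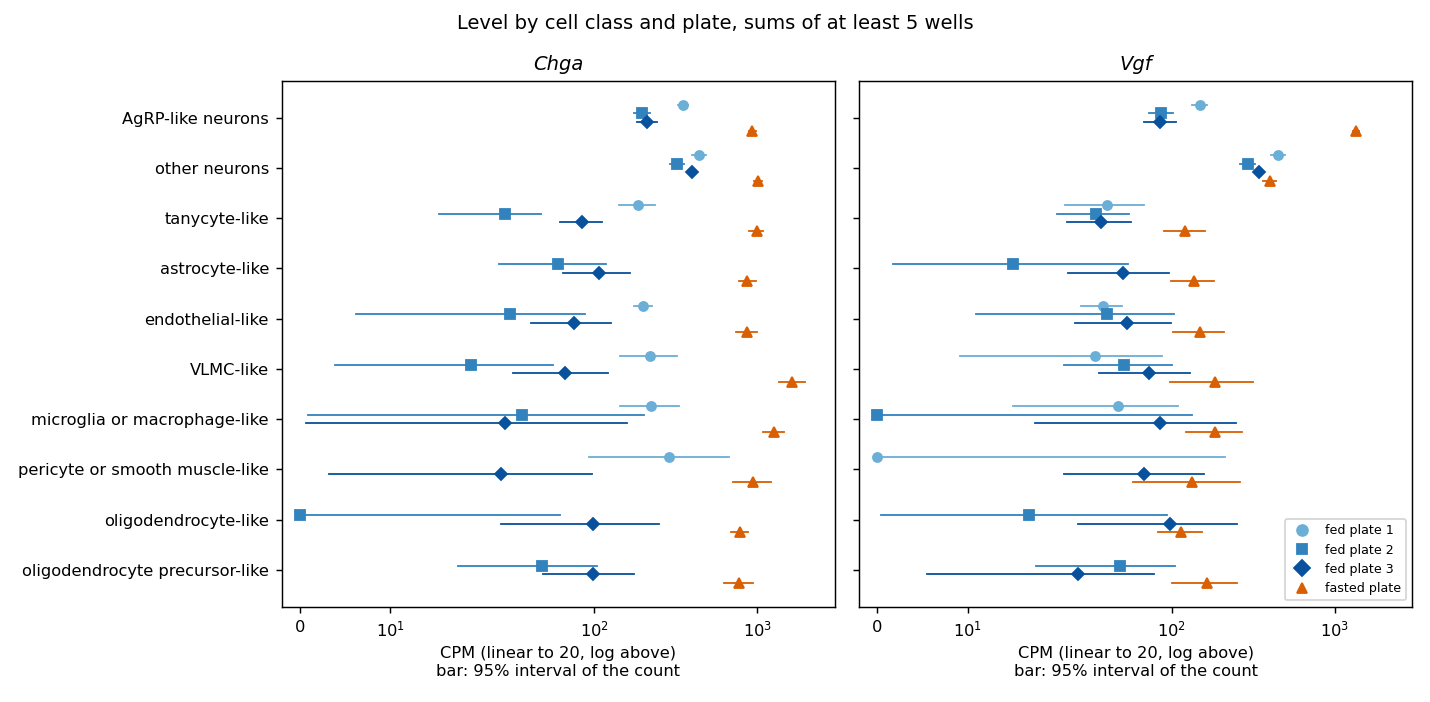
Level of Chga (left) and Vgf (right) in CPM by cell class and plate, with 95% intervals of the count alone (linear axis to 20, log above). Chga on the fasted plate lies between 769.2 and 1637 CPM in all 10 classes shown, while Vgf on that plate is at 1359 CPM in AgRP-like neurons and at 113.8 to 399.2 CPM elsewhere.

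In non-neuronal wells 0 of the 10 genes and 0 of 14914 genes were called by edgeR between fasted and fed plates, 0%, while 620 genes had an unadjusted p under 0.05. DESeq2 called 0 of the 10 and 10 genes in all. Vgf was at 38.5, 33.4 and 45 CPM fed and 138.6 CPM fasted (1.84, SE 0.31), Chga differed by 3.18 (SE 1.00) and Chgb by 2.21 (SE 0.48), each with an edgeR adjusted p = 0.93. The fasted value of each lay above all fed values, as did those of Scg2 (166.6 CPM), Scg3 (189.1 CPM) and Scg5 (127.4 CPM). The share of all genes with this order was not counted. On fed plate 1, 90 of 207 non-neuronal wells were endothelial-like and 3 astrocyte-like. Without that plate Vgf (1.88), Chga (4.17) and Chgb (2.57) were called higher, in a fit that called 1500 of 14627 genes. The same 3 were called with no filter on low counts, where 234 of 30801 genes were called.

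The fasted level of Vgf in other neurons lay within their fed levels. They had 447.8, 291.7 and 342.8 CPM fed and 399.2 CPM fasted, inside the fed range (0.16, SE 0.28, edgeR adjusted p = 0.87). Chga was the 1 gene of 10 called (1.40, SE 0.25, edgeR adjusted p = 0.048, beside 0.128% of 12509 genes higher and 0.168% called in either direction), and this call was lost with plain totals, without fed plate 2, without fed plate 3 or with the undetermined cluster added. The other 8 genes lay between -0.62 (Pcsk1) and 0.28 (Chgb). The makeup of this class shifted between plates: the Pomc-led wells N2, high in Vgf, numbered 25 fed and 0 fasted, and N0 made up 10 of its 24 fasted wells. Within N0, Vgf was at 396.6 CPM over 22 fed wells and at 627.2 CPM over 10 fasted wells, and within N1 it was at 420.7 CPM over 24 fed wells and at 165.5 CPM over 4 fasted wells, so these clusters ran in opposite directions, without a test. Over all neurons 1 gene was called, Vgf (2.13, SE 0.23, edgeR adjusted p = 0.016), where 0.133% of 15040 genes were higher and 0.16% called in either direction. That count was 4 without fed plate 1, with Chga, Chgb and Scg2 added, where 1097 of 14689 genes were called. Among wells with Xist alone it was 0, with 5 of 13387 genes called.

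A single fit of the class by feeding term tested whether the difference itself was unequal between classes. Vgf had a fasting difference 3.56 (SE 0.35, edgeR adjusted p = 0.020) larger on the log2 scale in AgRP-like than in other neurons, and it was the only gene called among 13635 (0.00733%). The size of this difference was 3.46 to 3.67 under all alternatives, but the call was lost with plain totals (adjusted p = 0.078), without fed plate 2 (0.44) and without fed plate 3 (0.82). Against non-neuronal wells 0 of 10 genes were called by edgeR for AgRP-like neurons, where 1 gene of 13635 was (0.00733%) and 1058 had an unadjusted p under 0.05 (DESeq2 called 0 of 10 and 15 genes in all). For other neurons edgeR called 0 of 10 and 0 of 13635 (0%), with 802 at an unadjusted p under 0.05, and DESeq2 0. For AgRP-like neurons Vgf had 1.90 (SE 0.35, edgeR adjusted p = 0.19) and 0.053 by DESeq2, and it was called with no filter on low counts (1.87). Without fed plate 1 there were 4 calls for AgRP-like neurons, where 263 of 13965 genes were called. Vgf (2.12) and Pcsk2 (1.04) had a larger and Chga (-1.99) and Chgb (-1.55) a smaller fasting difference than non-neuronal wells. Without that plate other neurons had 3 calls, all with a smaller difference, Vgf (-1.55), Chga (-2.70) and Chgb (-2.23), as with no filter. Among all genes 175 of 13965 were called without that plate and 103 of 34424 with no filter.

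**Figure D5:**
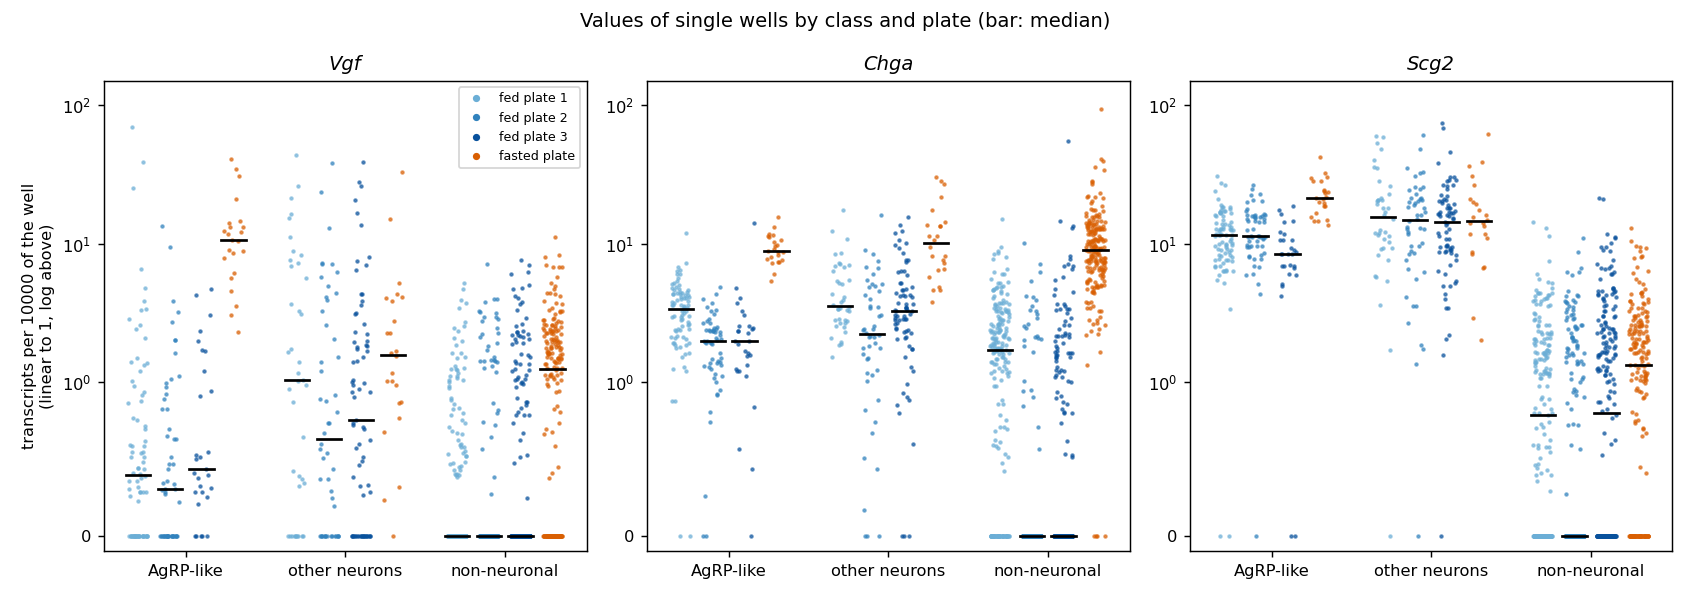
Transcripts per 10000 in single wells for Vgf, Chga and Scg2, by class and plate (linear axis to 1, log above, bar at the median). In fasted AgRP-like neurons the Vgf median is 10.7 against 0.30 to 0.44 on fed plates, and the Chga median is about the same in all 3 classes of the fasted plate (8.79, 10.1 and 8.95).

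Since the fasted plate held few wells with Y-linked transcripts, wells with Xist alone and wells with Y-linked transcripts alone were compared within fed plates 2 and 3, a comparison added after the data were seen. In AgRP-like neurons 0 of 10 genes were called by edgeR, where 0.0526% of 7603 genes were called (0.0132% higher) and 340 had an unadjusted p under 0.05. Vgf had a log2 difference of 1.07 with an edgeR adjusted p = 0.97, and the rest lay between -0.44 (Scg3) and 0.30 (Scg5). On fed plates 2 and 3 these sums held 40 and 6 wells with Xist alone and 11 and 14 with Y-linked transcripts alone. With so few wells and plates, a missing call does not show equal levels. In other neurons 0 of 10 were called (0.117% of genes, 0.0533% higher, 441 with an unadjusted p under 0.05), with values from -0.86 (Vgf) to 0.78 (Chgb), and in non-neuronal wells 0 of 9 tested (1.34% of genes, 1.17% higher, 1534 with an unadjusted p under 0.05), from -0.37 (Scg2) to 0.71 (Scg3). Among wells with Xist alone the fasting difference of Vgf in AgRP-like neurons was 3.78 and that of Chga 1.98, both called by edgeR at adjusted p = 1.42e-11 and 5.32e-04, respectively. That fit had 7, 40 and 6 wells on fed plates 1 to 3 and 22 on the fasted plate.

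Of the other pathway genes 3 passed the fasting test in AgRP-like neurons, 1 in each list, beside 2.99% of all genes higher. Of the other processing enzymes, 1 of 13 tested was higher and 0 lower, the amidating enzyme gene Pam (0.71, SE 0.21, edgeR adjusted p = 0.049), with a list median of 0.15. Dense core vesicle machinery had 1 of 27 higher and 0 lower, Nucb2, the precursor of nesfatin (0.95, SE 0.25, edgeR adjusted p = 0.025), with a median of -0.05. Of the prohormone substrates 1 of 15 was higher and 0 lower, Agrp itself (0.99, SE 0.23, edgeR adjusted p = 0.0087), with a median of 0.61. In other neurons and in non-neuronal wells 0 genes of the 3 lists were called by edgeR.

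Between AgRP-like neurons and non-neuronal wells, where 4219 of 15175 genes were higher and 4807 lower, 22 of 28 vesicle genes were higher and 1 lower. Snap25 is one of the 22 and had served to name neurons. The list was led by Resp18 (4.22, SE 0.23), a protein of endocrine granules, and Syt4 (3.80, SE 0.16), a synaptotagmin of vesicle membranes, with Sort1 lower (-1.36, SE 0.17). Of 14 other processing enzymes tested 2 were higher, Ctsl (0.50) and Qpct, and 6 were lower, among them Cpm (-3.47), Furin (-2.55), which cuts proproteins in the constitutive pathway of most cells, and Cpd (-1.64). In pars tuberalis-like wells against neurons, where 2167 genes were higher and 2531 lower, Furin was higher (2.03, SE 0.41) and Pam lower (-1.10, SE 0.26), and of the vesicle genes 4 were higher and 11 lower, with Rab3a (-2.38, SE 0.22) and Baiap3 (-2.70, SE 0.28) lower and Cadps2 higher (1.59, SE 0.18). All these had edgeR adjusted p-values under 0.05. Of 19 prohormone substrates 12 were lower in AgRP-like than in other neurons, beside 675 of 15175 genes, among them Crh (-5.69, SE 0.84) and Ghrh (-5.33, SE 0.56). The 2 higher ones, Agrp and Npy, had named the class, as Cga and Tshb had named the pars tuberalis-like wells, so their differences restate the naming. The third substrate higher in pars tuberalis-like wells than in neurons was Cck (6.85, SE 0.81), and 10 were lower.

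Across 34 sums of at least 10 wells from 14 classes and 9805 genes, the gene with the profile most like Scg2 was Resp18 (Pearson r = 0.954 of log2(CPM + 10)), which was also the nearest to Pcsk1 (r = 0.889). Chga was nearest to Cck (r = 0.934) among other genes and to Chgb (r = 0.903) within the set. Pcsk1n was nearest to Uchl1 (r = 0.940), Scg3 to Psd2 (0.932), Scg5 to Gnaz (0.916), Cpe to Kcnk1 (0.873), Pcsk2 to Scn3b (0.869) and Chgb to Insm1 (0.866). Vgf had the weakest nearest gene, Got1 (r = 0.777). These sums share plates, depth and the split between neurons and other cells, so the values only describe the profiles.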

How the data were processed

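The 10 genes and the pathway lists were chosen with earlier results of these data known. Deposited values are expected counts per gene and well, that is UMIs corrected for collisions among 4096 possible UMIs, and every value traced back to a whole UMI number within 1e-06. Per the labels' protocols libraries were made with CEL-seq2 and a UMI of 6 bases, and the submitters' processing notes name Trim Galore, STAR and mm10. Counts were rounded. Kept wells, 1279 of 1536, had 1000 or more transcripts (spike-ins and mitochondrial genes not counted) and a mitochondrial share under 30%. No doublet caller was run, since wells were sorted singly.

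Wells were clustered with scanpy 1.11.5 (2000 variable genes, 30 components, 10 neighbours, Leiden resolution 1.5, 24 clusters). Names ending in "-like" needed 3 markers of a fixed list, and neurons 5 of 9 neuron markers. Thresholds for neurons and for 1 undetermined cluster, kept out of all classes, were set after the data were seen. Sums per plate and class were tested with edgeR 4.0.16 (filterByExpr, TMM, robust quasi-likelihood, Benjamini-Hochberg over all genes, threshold 0.05) in R 4.3.3, and DESeq2 1.42.0 was an alternative. Scripts were tested on simulated data. Levels are CPM of plain totals. Differences are log2 folds with standard error (SE). Intervals of levels cover counting error only, and those of shares of wells cover the draw of wells but not the spread between plates.

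The rule for named genes takes in all 10 genes, given singly or by their range. From each pathway list at most 5 called genes per direction were to be named, by size of fold, and the nearest gene is the one with the highest r among genes with a mean of at least 20 CPM. Coordinates come from GENCODE vM21 on GRCm38 (mm10).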

Additional observations from a re-analysis of the deposited data

Results flagged for a closer look

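The fasting difference of Vgf was unequal between neuron classes by a test of the difference itself, 3.56 larger on the log2 scale in AgRP-like than in other neurons (edgeR adjusted p = 0.020). The call was lost with plain totals (adjusted p = 0.078), without fed plate 2 (0.44) and without fed plate 3 (0.82), and the Pomc-led wells of other neurons, high in Vgf, numbered 25 fed and 0 fasted. In AgRP-like neurons Vgf ran from 84.8 to 148 CPM fed and had 1359 CPM fasted, and in other neurons from 291.7 to 447.8 CPM fed with 399.2 CPM fasted.

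Wells under 1000 transcripts, which enter no comparison, held Chga at 5714 CPM on the fasted plate, above the 249.1 to 1569 CPM of such wells on the fed plates. The fasted value rests on 88 Chga transcripts in 109 wells, and that of fed plate 1 on 18. These wells were unlike in depth, with a median of 25 transcripts fasted against 365.5, 372 and 572 on fed plates 1 to 3.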

How the results depend on the processing

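Counts of the 10 genes called (higher and lower together) changed as follows. For fasting in AgRP-like neurons the count was 5, and 3 with DESeq2, 2 among wells with Xist alone and 2 to 5 with a fed plate left out. All genes called numbered 631 of 13093 in the reported fit and 186 of 13093 with DESeq2. They numbered 57 of 10790 among wells with Xist alone and 336 to 970 with a fed plate left out. In other neurons it was 1, and 0 with plain totals, 0 with the undetermined cluster added and 0 to 1 with a fed plate left out. These fits called 21 of 12509, 16 of 12509, 13 of 13018 and 32 to 247 genes in all. Over all neurons it was 1, and 2 with DESeq2, 2 with no filter on low counts, 2 with the undetermined cluster, 0 among wells with Xist alone and 1 to 4 with a fed plate left out. In the same order 24 of 15040, 63 of 15040, 415 of 30117, 37 of 15384, 5 of 13387 and 23 to 1097 genes were called. In non-neuronal wells it was 0, and 3 with no filter and 0 to 3 with a plate left out. There the fits called 0 of 14914, 234 of 30801 and 0 to 1500 genes in all. The class by feeding terms gave 0 for AgRP-like neurons against non-neuronal wells (1 with no filter, 0 to 4 with a plate left out), 0 for other neurons against them (3 with no filter, 0 to 3) and 1 between the neuron classes (0 with plain totals, 0 to 1). These terms called 1, 0 and 1 of 13635 genes in the reported fit, and 143, 103 and 39 of 34424 with no filter. With a plate left out they called 0 to 263, 0 to 175 and 0 to 79 genes. AgRP-like against other neurons gave 1 (3 with no filter, 1 to 2 with a plate left out), beside 1054 of 15175 genes (1564 of 34690, 650 to 1481). Over 12 comparisons, which include class comparisons not listed in this paragraph, 81 of 104 alternative counts stayed within 1.5 times the reported count.

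Of 39 calls of single genes 27 held under every alternative, and 0 called values reversed. Over all genes, fasting in AgRP-like neurons called 631 genes with edgeR and 186 with DESeq2. Without plate as a term (no replicate block) the class comparisons called 8, 8, 1, 6 and 7 of the 10 genes. Beside these they called 8226, 7891, 764, 3125 and 4555 of all 15175 genes, where AgRP-like against other neurons had 1054 with the term. No paired analysis was possible because the fed and fasted plates share only 1 replicate number and nothing in the labels ties plates to animals. Only 1 plate was fasted, pars tuberalis-like wells came from 2 plates, and low counts limit Pcsk1 and Vgf outside neurons.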
